A study of Mus musculus with 2 samples.

Results

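The 9 genes described here make, extend, branch and break down glycogen, the branched glucose polymer that the liver stores, or regulate these steps. They are Ugp2, Gyg, Gys1, Gys2, Gbe1, Pygl, Pygb, Ppp1r3b and Ppp1r3c. They were matched by symbol to the gene identifiers of the mm10 tables, and 9 of 9 were found among 43346 mouse genes. The tissue was E18 (embryonic day 18) fetal liver of the mouse strain C57BL/6J, from littermates of both sexes. The study holds 1 group of 2 poly(A)+ RNA libraries, numbered as biological replicates 1 and 2, with no treatment, mutant or second age. Both libraries carry 1 donor label, and the labels do not say which embryos went into which library. With 1 library on each side no test is possible, so a mean ± SD covers the spread of these 2 libraries and no p-value is given.

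Glycogen is built from UDP-glucose, which UDP-glucose pyrophosphorylase (Ugp2) makes. Glycogenin (Gyg) starts each particle by attaching glucose to itself, glycogen synthase lengthens the chains, and the branching enzyme (Gbe1) adds the side branches. Phosphorylase removes glucose from chain ends as glucose 1-phosphate. The liver has its own forms of synthase (Gys2) and phosphorylase (Pygl), while Gys1 serves muscle and most other tissues and Pygb is named for the brain. Targeting subunits such as Ppp1r3b and Ppp1r3c carry protein phosphatase 1 to glycogen, where dephosphorylation switches synthase on and phosphorylase off. Fetal liver is known to lay down glycogen late in gestation and to draw on it after birth.

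Transcript choice at the 3′ end of Gys2 and at the 5′ end of Ugp2 is shown first, because the annotated proteins differ there. Gys2-201, the full-length transcript, ends its reading frame in its last exon but 1. Gys2-202 leaves that exon at an earlier splice site and skips 127 bases, among them the stop codon of Gys2-201. In the coding sequence of both, from the same 45 bases on (mm10, minus strand, chr6:142423409-142423565 for Gys2-201 and chr6:142422828-142423565 across the intron for Gys2-202), capitals mark the coding bases that follow the Gys2-202 splice site.
Gys2-201: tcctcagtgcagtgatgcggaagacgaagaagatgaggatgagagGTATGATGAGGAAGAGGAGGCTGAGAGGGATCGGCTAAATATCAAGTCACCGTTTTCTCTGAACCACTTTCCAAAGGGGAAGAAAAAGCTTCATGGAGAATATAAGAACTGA
Gys2-202: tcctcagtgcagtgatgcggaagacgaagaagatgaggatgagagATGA
The capitals run to the stop codon in each. From the codon that the splice site splits to the stop, Gys2-201 has 37 codons and Gys2-202 has 1. Gys2-202 is annotated only as a 3′ fragment, so its whole frame is not given.

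Ugp2 has first exons at 2 places, whose starts lie 724 bases apart on chromosome 11. The first exon of Ugp2-202 (mm10, minus strand, chr11:21370187-21370477) carries a start codon. That of Ugp2-201 (chr11:21371015-21371201) does not, and its frame starts in the shared exon 2. Capitals mark the coding bases of Ugp2-202 that lie ahead of the Ugp2-201 frame, and the start codon of Ugp2-201.
Ugp2-202: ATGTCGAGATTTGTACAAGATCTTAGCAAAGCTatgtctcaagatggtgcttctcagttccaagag
Ugp2-201: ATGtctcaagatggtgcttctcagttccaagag
The extra 11 codons make Ugp2-202 a frame of 508 codons, against 497 for Ugp2-201. These stretches were read from GENCODE M21 transcripts.

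All 9 genes reached 1 TPM in each of the 2 libraries, the level called detected here, against 28.4% of all mouse genes. TPM is the deposited transcript abundance, which allows for gene length and for sequencing depth. The 9 mean levels had a median of 34.2 TPM, beside 8.49 TPM over the 12557 expressed genes (mean level 1 TPM or higher). Expected counts of the 9 genes, the authors' estimates of fragments per gene, lay between 2335 and 61611. At these counts the counting error is small. Pygl was highest and Gys1 lowest in both libraries. In the order of levels each gene lay above the next in both libraries, except that Ppp1r3b, Gbe1 and Ppp1r3c could not be ordered.

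**Figure D1:**
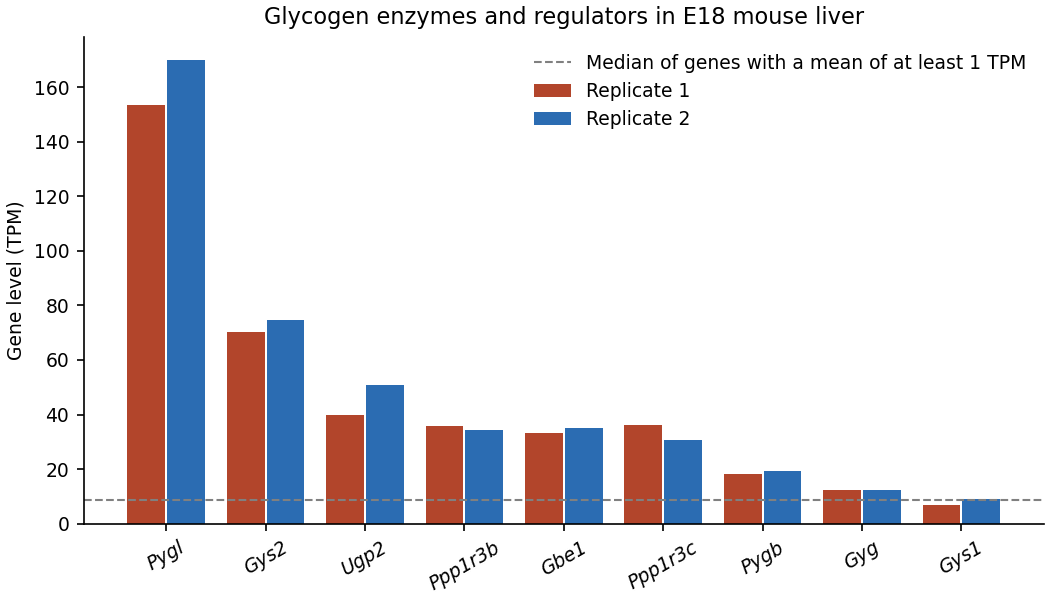
Level of each gene in TPM, with replicate 1 left of replicate 2 for each gene and genes ordered by mean level. Pygl stands at 154 and 170.1 TPM and Gys1 at 6.62 and 9.00 TPM, and the dashed line at 8.49 TPM is the median of expressed genes.

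Ugp2, the source of UDP-glucose (chromosome 11, 21321138 to 21371201), had 39.7 TPM in replicate 1 and 50.9 TPM in replicate 2. The mean of 45.3 ± 7.91 TPM (SD, n = 2) lay above 86.8% of expressed genes. Replicate 1 was the lower library, and its SD was the second largest of the 9. Gyg, which primes new particles (chromosome 3, 20122084 to 20155317), had 12.3 and 12.4 TPM, the closest pair of values among the 9, with a mean of 12.3 ± 0.0778 TPM.

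The liver synthase Gys2 (chromosome 6, 142422613 to 142473109) had 70.3 TPM in replicate 1 and 74.7 TPM in replicate 2, a mean of 72.5 ± 3.12 TPM (SD, n = 2). The synthase of most tissues, Gys1 (chromosome 7, 45434844 to 45456619), had 6.62 TPM in replicate 1 and 9.00 TPM in replicate 2, a mean of 7.81 ± 1.68 TPM. Gys2 exceeded Gys1 in both libraries, by 10.6 times in replicate 1 and 8.30 times in replicate 2, or 9.46 ± 1.64 (SD, n = 2). In the RPKM values of the older build mm9, given in full later, the ratio was lower, at 5.33 for the first value and 6.44 for the second. Transcripts of both genes were therefore present in the whole tissue, with the liver form well ahead. Aligned coding sequences of Gys2 and Gys1 were 69.3% identical, and no stretch of 101 bases, the read length, was common to them. Gys1 shares 190 of its 4975 stretches of that length with the antisense strand of Ruvbl2, and the sources used here do not say whether counting used strand, so the Gys1 level is uncertain to that extent.

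The branching enzyme gene Gbe1 (chromosome 16, 70313949 to 70569716) had 33.3 TPM in replicate 1 and 35.0 TPM in replicate 2. Its mean of 34.2 ± 1.22 TPM could not be told from those of Ppp1r3b and Ppp1r3c, since the values of these genes overlap those of Gbe1. Its leading transcript alone, a measure added after the data were seen, averaged 15.6 TPM, which is below the 17.6 TPM of the leading Pygb transcript.

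The liver phosphorylase Pygl (chromosome 12, 70190811 to 70231488) had 154 TPM in replicate 1 and 170.1 TPM in replicate 2. Its mean of 162 ± 11.6 TPM (SD, n = 2) exceeded 96.0% of expressed genes. Pygb, the brain form (chromosome 2, 150786735 to 150831758), had 18.1 and 19.2 TPM, a mean of 18.7 ± 0.742. Pygl exceeded Pygb by 8.47 times in replicate 1 and 8.86 times in replicate 2 (8.67 ± 0.277). Phosphorylase is switched on by phosphorylation of a serine near its start. In the first 60 coding bases (mm10, chr12:70227524-70227583 on the minus strand for Pygl and chr2:150786868-150786927 on the plus strand for Pygb) capitals mark that serine, codon 15, which both transcripts hold.
Pygl-201: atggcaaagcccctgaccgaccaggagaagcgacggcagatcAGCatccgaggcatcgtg
Pygb-201: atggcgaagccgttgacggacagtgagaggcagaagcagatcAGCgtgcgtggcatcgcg
Over their aligned coding sequence the Pygl and Pygb transcripts were 75.6% identical, with no common stretch of 101 bases.

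Phosphorylase transcripts outnumbered synthase transcripts. The summed synthase level, Gys1 with Gys2, was 0.448 of the summed phosphorylase level, Pygl with Pygb, in replicate 1 and 0.442 in replicate 2, a mean of 0.445 ± 0.00383 (SD, n = 2). These are levels of RNA, and activity of both enzymes is set by phosphorylation, which was not measured here.

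The targeting subunit genes stood close together. Ppp1r3b, best known from liver (chromosome 8, 35375739 to 35388139), had 35.8 TPM in replicate 1 and 34.5 TPM in replicate 2, a mean of 35.1 ± 0.948. Ppp1r3c, which is made in several tissues (chromosome 19, 36731731 to 36736653), had 36.0 TPM in replicate 1 and 30.5 TPM in replicate 2, a mean of 33.2 ± 3.90. The ratio of Ppp1r3c to Ppp1r3b was 1.01 in replicate 1 and 0.884 in replicate 2 (0.945 ± 0.0856), on either side of 1, so neither was the higher in both libraries.

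The libraries differed from each other in depth, sex-linked RNA and markers of other cells. The expected counts summed to 163766625 for replicate 1 and 139889938 for replicate 2. Xist, which female cells express, had 157187 counts in replicate 1 and 41 in replicate 2, although the labels give both sexes as pooled. The Y-linked genes were the reverse, with Ddx3y at 1 and 6544 counts, Eif2s3y at 3 and 5885, Kdm5d at 1 and 3661 and Uty at 3 and 2261. By these counts replicate 1 held mainly RNA of female embryos and replicate 2 mainly RNA of male embryos. Sex and library therefore cannot be told apart in any ratio of replicate 1 over replicate 2. Hepatocyte markers were present in both, with all 6 detected and a summed level of 96039 and 94149 TPM, led by Alb and Apoa2. Most of that sum was Alb, at 75316.5 and 75756.1 TPM. All 6 erythroid markers summed to 165482 and 163110 TPM, led by Hba-a2 and Hbb-bs, and all 6 neutrophil markers to 8879 and 12820 TPM, led by S100a8 and S100a9. On the scaled counts described below, the median log2 ratio of replicate 1 over replicate 2 was 0.22 for the hepatocyte markers. It was 0.12 for the erythroid and -0.38 for the neutrophil markers. The 5 pancreas acinar markers, led by Ctrb1 and Cela2a, summed to 51.0 TPM in replicate 1 and 0.740 TPM in replicate 2, with none detected in both and none at 0 in both. The 6 striated muscle markers, led by Mylpf and Acta1, summed to 16.2 and 6.82 TPM, with 1 detected in both. All 4 megakaryocyte markers, led by Pf4 and Ppbp, summed to 362.6 and 381 TPM, and all 4 macrophage markers, led by Clec4f and Csf1r, to 119 and 96.0 TPM. The macrophage markers did not move together, with Clec4f at 64.5 and 36.0 TPM but Csf1r at 24.6 and 28.7 TPM. Their median log2 ratio was 0.06. All 4 endothelial markers, led by Stab2 and Cdh5, summed to 47.0 and 55.5 TPM, and all 5 stellate and mesenchymal markers, led by Reln and Col3a1, to 72.9 and 82.1 TPM. The 4 brain markers, led by Gfap and Syt1, summed to 3.73 and 3.70 TPM, with 1 detected. Nearly all of that sum was Gfap, at 3.68 and 3.62 TPM. The part of other cells in the levels of the 9 genes was not tested. In bulk tissue, fewer cells of a type and less RNA per cell cannot be told apart.

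None of the 9 genes differed beyond 2-fold between the libraries. Over all genes with a mean count of at least 50, 272 of 14956 did, or 1.82%. The ratio was taken as the log2 of replicate 1 over replicate 2 on counts scaled by TMM, a library size correction, and its 95% interval covers counting error only. The median over the 9 genes was -0.02, beside -0.00 over all genes. The median size regardless of sign was 0.106 for the 9 genes and 0.137 for all genes, which are not matched on count and reach down to lower counts than the 9.

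**Figure D2:**
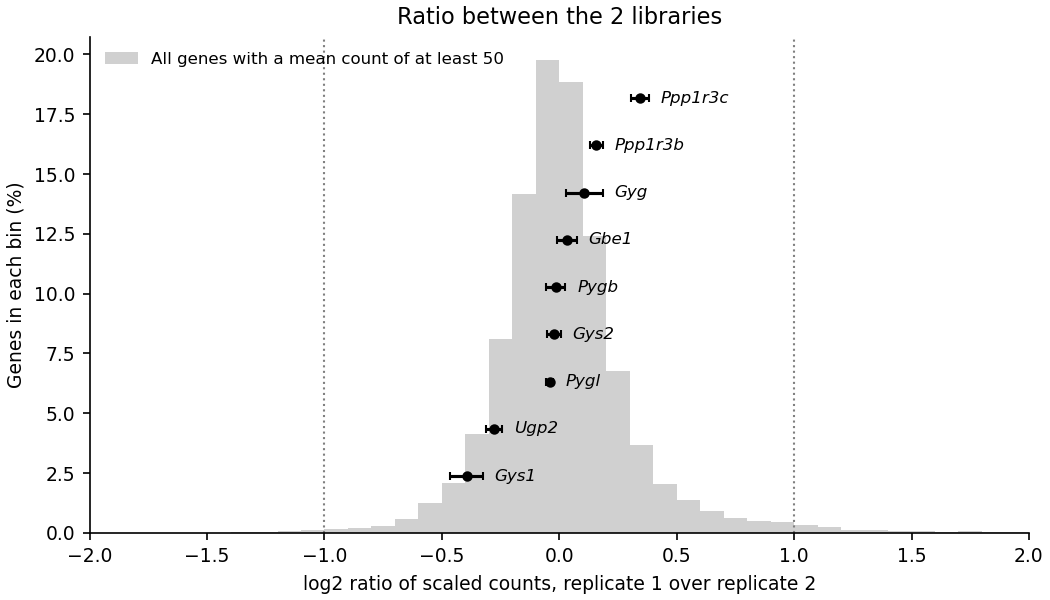
log2 ratio of scaled counts, replicate 1 over replicate 2, for the 9 genes (points, with 95% intervals of counting error, stacked only for reading) over the distribution of all 14956 genes with a mean count of at least 50 (grey bars, percent of genes per bin). Points run between -0.40 for Gys1 and 0.34 for Ppp1r3c, inside the dotted lines at 2-fold.

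Gys1 and Ugp2 were lower in replicate 1, with log2 ratios of -0.40 (-0.46 to -0.33) and -0.28 (-0.31 to -0.24). Ppp1r3c was higher in replicate 1, at 0.34 (0.31 to 0.38), as was Ppp1r3b at 0.16 (0.13 to 0.19). Among all genes, 12.3% lay farther from 0 than Gys1, 22.5% farther than Ugp2 and 15.9% farther than Ppp1r3c. Gyg, at 0.11 (0.03 to 0.19), and Pygl, at -0.04 (-0.06 to -0.03), also lay off 0 by more than counting error. The intervals of Gys2 (-0.05 to 0.01), Gbe1 (-0.01 to 0.07) and Pygb (-0.06 to 0.03) held 0.

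The scaling sets where 0 lies. On the TPM ratio the median of all genes moved to -0.11, and on the spike-in total to -0.54, where all 9 genes were lower in replicate 1. A library-wide factor moves every gene alike, so relative to the median of all genes the spike-in total leaves the 9 genes where TMM put them. The TPM ratio, which also carries each library's effective lengths, can differ from TMM, as can the mm9 values given later. Relative to that median, Gys1 lay at -0.33 on the TPM ratio and -0.39 after TMM, Ugp2 at -0.25 and -0.27, and Ppp1r3c at 0.35 on both. Gys2 lay at 0.02 on the TPM ratio and -0.02 after TMM, and Pygb at 0.03 and -0.01. The sign of both thus differed between the measures, and their intervals of counting error after TMM held 0.

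The Gys2 transcripts were weighed very differently by each measure. Gys2-202, annotated as a fragment of 314 bases, held 22.7% of the gene's TPM in replicate 1 and 20.3% in replicate 2, but only 1.18% and 0.929% of its expected counts. In the junction list, made on the older build mm9 with reads R1 and R2 of 2 replicates that its names do not tie to the 2 libraries, the Gys2-202 splice (chromosome 6, intron 142371352 to 142372040) had 465 reads in R1 and 476 in R2. The Gys2-201 splice from the later site (142371352 to 142371913) had 816 and 846 reads. Gys2-202 therefore took 36.3% of the R1 reads at their common acceptor (95% exact interval 33.7 to 39.0%) and 36.0% of the R2 reads (33.4 to 38.7%), and the intervals overlapped. Of the reads that end at this acceptor, more than 1 in 3 thus joined it to the earlier splice site. In the annotated frame that splice leads to the early stop printed above, which lies in the last exon. The share is one of splice reads and does not give the length of the transcripts they came from.

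For Ugp2, the first exon that encodes the longer start led by most measures. Ugp2-202 held 74.5% of Ugp2 TPM in replicate 1 and 81.3% in replicate 2, and Ugp2-201 held 23.4% and 16.2%. The junction from the first exon of Ugp2-202 into exon 2 (mm9 chromosome 11, 21254410 to 21270189) had 440 reads in R1 and 454 in R2, and that from the Ugp2-201 exon (21254410 to 21271017) had 196 and 172. Ugp2-202 took 69.2% of the R1 reads (65.4 to 72.8%) and 72.5% of the R2 reads (68.8 to 76.0%), and the intervals overlapped. The deposited mm9 transcript values went the other way, with 4.67 and 2.91 RPKM for Ugp2-202 and 16.5 and 5.67 RPKM for Ugp2-201. RPKM is read density per kilobase and sequencing depth, and the 2 transcripts share all exons but the first and the extent of the last.

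Because both Ugp2 starts were in use, the 250 bases ahead of each RefSeq start (GRCm38.p6, minus strand) are given, from chr11:21370630-21370879 for the inner start and chr11:21371268-21371517 for the outer one. The inner RefSeq start lies upstream of that of Ugp2-202 in M21. Capitals mark matches to GGGCGG (GC box) and CCAAT, on either strand.
Ugp2 inner promoter: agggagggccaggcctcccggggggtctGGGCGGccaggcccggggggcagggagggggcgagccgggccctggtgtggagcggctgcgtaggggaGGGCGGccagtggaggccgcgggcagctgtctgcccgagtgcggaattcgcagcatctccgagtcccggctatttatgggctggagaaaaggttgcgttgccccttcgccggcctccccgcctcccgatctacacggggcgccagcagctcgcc
Ugp2 outer promoter: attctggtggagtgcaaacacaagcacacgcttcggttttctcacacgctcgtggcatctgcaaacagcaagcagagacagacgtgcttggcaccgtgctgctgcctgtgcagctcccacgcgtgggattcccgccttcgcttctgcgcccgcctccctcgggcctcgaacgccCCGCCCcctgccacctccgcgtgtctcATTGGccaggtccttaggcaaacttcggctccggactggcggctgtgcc
The inner window was 73.6% G and C with 23 CG pairs and the outer 64.0% with 21, beside medians of 52.4% and 6 over 32851 RefSeq promoters. GGGCGG was present in both windows and in 32.7% of all promoters, and CCAAT in the outer window and 33.8% of all. RefSeq promoters were found for 7 of the 9 genes, in 8 entries, all but Gys2 and Ppp1r3b. GGGCGG was in 5 of the 8 entries, those of Gyg, Gys1 and Pygl besides the 2 of Ugp2. CCAAT was in 3, those of Gys1, Ppp1r3c and the outer Ugp2 start. The E-box CACGTG was in that of Ppp1r3c and 6.02% of all, and TATAAA (12.4% of all) and TGACGTCA (1.55% of all) were in none of the 8. The motifs were searched on both strands and none of them contains another.

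Most junction reads of Ppp1r3b came from introns outside the annotation the authors used. The mm10 tables give 1 transcript, Ppp1r3b-201, all of the gene's counts. On mm9, the intron of that transcript (chromosome 8, 36438860 to 36447037) had 199 reads in R1 and 173 in R2. An intron that starts 136 bases later (36438996) had 652 and 390 reads, and one that starts at 36439808 had 339 and 402. Both end at the same acceptor, are not in the ENSEMBL 65 annotation of the mm9 tables, and match by length, at 8042 and 7230 bases, introns of Ppp1r3b-202 and Ppp1r3b-204 in GENCODE M21. All junctions outside the annotation together held 84.3% of the gene's R1 reads and 83.0% of its R2 reads.

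Among the reads at that acceptor, the annotated intron took 16.7% in R1 (14.6 to 19.0%) and 17.9% in R2 (15.6 to 20.5%). The 8042-base intron took 54.8% in R1 (51.9 to 57.6%) and 40.4% in R2 (37.3 to 43.6%), and the 7230-base intron 28.5% (25.9 to 31.1%) and 41.7% (38.5 to 44.8%). The share of the 8042-base intron was higher in R1 and that of the 7230-base intron lower in R1, by more than counting error, while the intervals of the annotated intron overlapped. With 1 value on each side there is no further replicate for this difference. In M21 all 3 transcripts hold the same coding sequence of 855 bases in the last exon, so the choice falls before the start codon. The other intron of Ppp1r3b-204, of 761 bases, leads into the exon from which the 7230-base intron starts, and had only 3 and 1 reads. The match by length thus does not show that the reads of the 7230-base intron came from Ppp1r3b-204 as annotated.

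**Figure D3:**
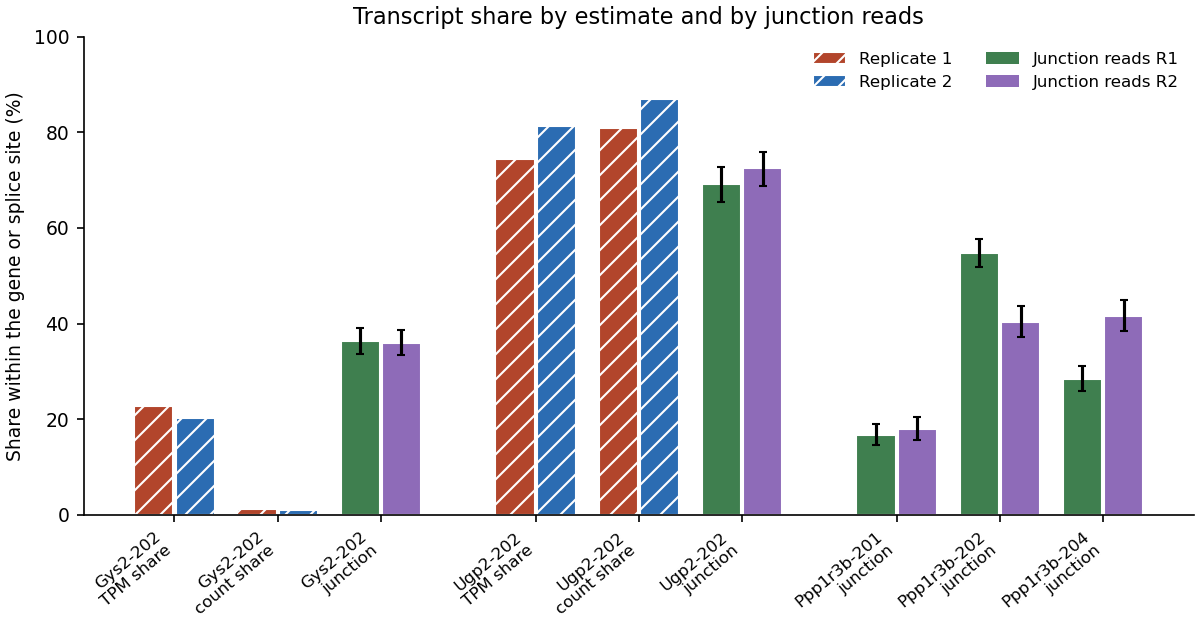
Shares in percent. Hatched bars give shares of gene TPM and of expected counts in replicates 1 and 2, and plain bars give shares of junction reads at a common acceptor in R1 and R2 with 95% exact intervals. Gys2-202 has 36.3% and 36.0% of junction reads but about 1% of counts, and the Ppp1r3b-202 and Ppp1r3b-204 introns, matched by length, have shares of 54.8% and 40.4% and of 28.5% and 41.7%.

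The other genes had 1 leading transcript or a split that reads could not settle. Pygl-201 held 98.4% and 98.5% of Pygl TPM in replicates 1 and 2 (83.0% and 82.3% of the first and second mm9 RPKM value). Pygb-201 held 92.7% and 95.4% (98.5% and 97.4% on mm9) and Gys1-201 83.1% and 87.5% (64.9% and 44.4% on mm9). Gyg-203 held 95.6% and 91.7%, but the mm9 values do not list it and give Gyg-201 99.9% and 50.6%. Ppp1r3c-201, the only transcript of its gene, held 100%. Gbe1 was divided among Gbe1-203 (45.1% and 46.0%), Gbe1-205 (34.4% and 34.6%) and Gbe1-201 (19.6% and 18.7%). Gbe1-205, a retained-intron fragment of 658 bases, held only 7.87% and 7.77% of the expected counts, against 64.4% and 65.8% for Gbe1-203. The only intron that ENSEMBL 65 gives to Gbe1-201 alone lies 1 base from that of Gbe1-203 and was not in the junction list, whereas the intron of Gbe1-203, shared there with Gbe1-206, had 974 reads in R1 and 966 in R2. The mm9 RPKM values divided the gene otherwise, with 43.9% and 31.2% for Gbe1-203, 37.8% and 23.7% for Gbe1-206 and 15.2% and 21.2% for Gbe1-201.

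Splice reads along the genes gave a second view of level. Summed over annotated introns, Pygl had 58315 reads in R1 and 52628 in R2, Gys2 23602 and 22238, Ugp2 9559 and 9901, Gbe1 8198 and 6882, Pygb 6892 and 6117, Gys1 2084 and 2511, and Gyg 1777 and 1435. Ppp1r3b and Ppp1r3c have a single annotated intron, with 372 and 429 reads in all, so most of their reads cross none. Scaled to all junction reads of each replicate, the log2 ratio of R1 over R2 on these annotated introns was -0.52 for Gys1 and -0.31 for Ugp2, the lowest of the 9, and lay between -0.17 and 0.14 for the other 7. These values stand beside the library ratios above without being tied to the same libraries by name.

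Reads were not even along the genes. In R1 and R2 the last intron of Gys1 had 3.59 and 3.20 times the reads of the first, that of Ugp2 2.70 and 3.02 times, that of Gys2 1.91 and 2.23 times and that of Gyg 1.75 and 2.06 times. Pygb stood at 1.43 and 1.47 and Gbe1 at 0.896 and 1.16. In Pygl the last intron had fewer, at 0.601 and 0.549 of the first. Shares at first exons, such as those of Ugp2, and at last exons, such as those of Gys2, thus rest on different depths of the same gene.

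**Figure D4:**
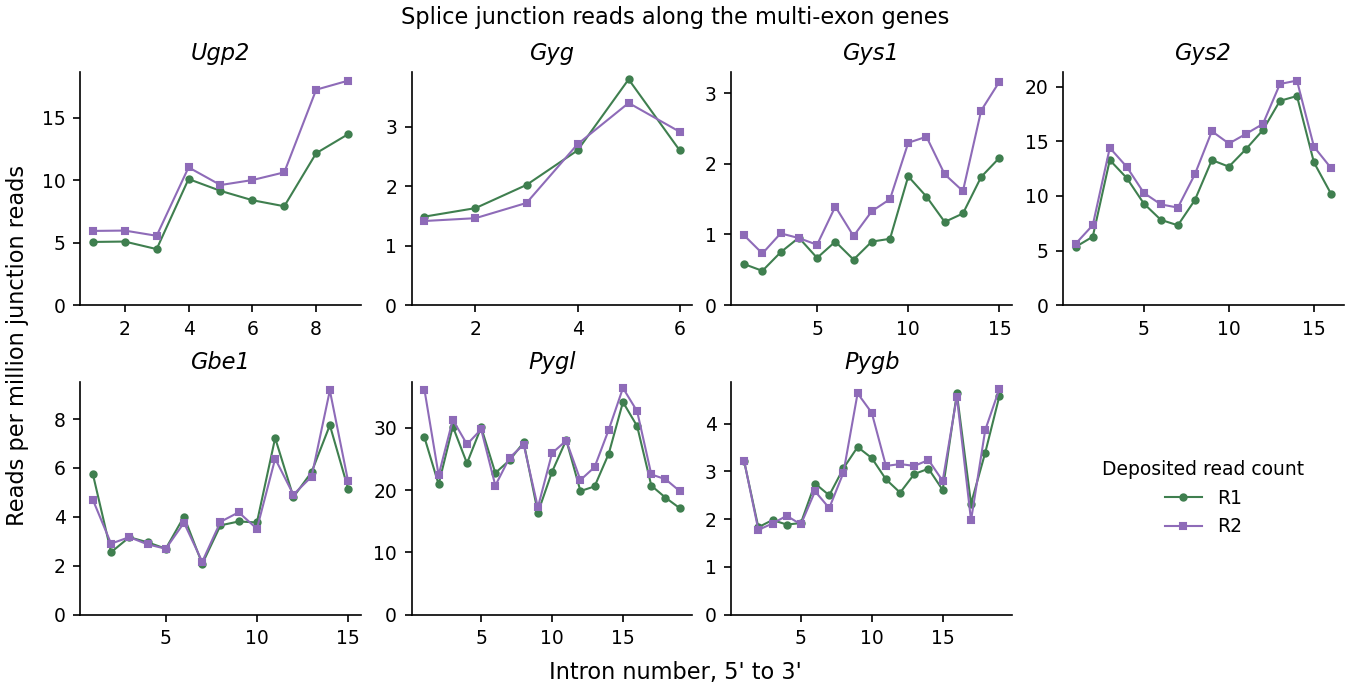
Reads across annotated introns from the 5′ to the 3′ end, scaled to the same total of junction reads in the deposited counts R1 and R2, with alternatives at a shared splice site summed and introns under 20 reads left out. Gys1 and Ugp2 climb 2.70 to 3.59 times toward the 3′ end, and R2 lies above R1 at the 3′ end of both.

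In the second quantification, on mm9 with ENSEMBL 65, Pygl was again highest in both values. The order of several others differed between its 2 values, among them Ugp2 and Gys2, Gbe1 and Ppp1r3b, and Gys1 and Gyg. Its first and second deposited RPKM values were 67.5 and 33.7 for Pygl, 21.9 and 11.6 for Gys2, 24.3 and 9.00 for Ugp2, and 9.46 and 5.76 for Gbe1. Ppp1r3b had 7.98 and 8.58, Ppp1r3c 6.83 and 8.36, Pygb 7.58 and 3.71, Gys1 4.12 and 1.79, and Gyg 2.12 and 2.31. The values are not named by library. The log2 ratio of first over second had a median of 0.92 over the 9 genes, beside 0.51 over the genes with a mean mm10 count of at least 50, and 4 of the 9 lay beyond 2-fold, as did 25.6% of those genes. Gys1, at 1.20, and Ugp2, at 1.43, were thus the highest by this measure and the lowest by junction reads of the same build. Ppp1r3c, at -0.29, Gyg, at -0.12, and Ppp1r3b, at -0.11, were the lowest by this measure. The normalization that made the RPKM values is not given in the sources used here, and the reason for the difference was not tested.

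The rest of the pathway was read from 8 lists of 52 genes. All 52 were found and 45 were detected, beside 28.4% of all mouse genes, a share that also applies to the counts per list below. The median of their mean levels was 13.4 TPM.

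**Figure D5:**
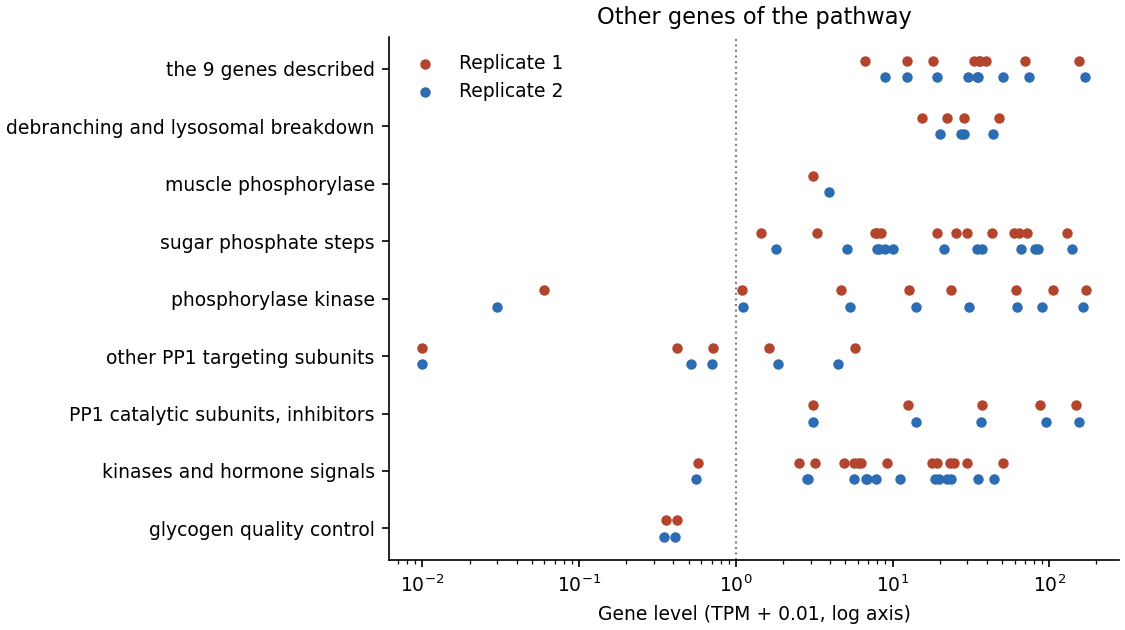
Level of every listed gene (points, TPM with 0.01 added, log axis), with replicate 1 above replicate 2 in each row and the dotted line at 1 TPM. The 9 genes described fill the top row, all above the line, and 7 of the 52 other genes fall below it.

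The sugar phosphate steps lead glucose into glycogen and out of the cell. All 13 genes of this list were detected, with a list median of 25.3 TPM in replicate 1 and 21.4 TPM in replicate 2. Pgm1, of the phosphoglucomutase family, which interconverts glucose 1-phosphate and glucose 6-phosphate, had 131 and 139.6 TPM. Slc37a4, which carries glucose 6-phosphate into the endoplasmic reticulum, had 72.3 and 80.9 TPM, and the glucose transporter Slc2a1, abundant in erythroid cells, 59.3 and 84.3 TPM.

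Debranching and lysosomal breakdown were represented by 4 of 4 detected genes. Stbd1, which tethers glycogen to membranes, had 47.7 and 44.0 TPM, Gabarapl1, an autophagy protein, 28.8 and 27.2 TPM, and the lysosomal glucosidase Gaa 22.4 and 28.5 TPM. The muscle phosphorylase Pygm had 3.08 and 3.91 TPM, and was detected. Its log2 ratio on scaled counts was 0.09, while its TPM was the lower in replicate 1, so its direction depends on the measure. The summed striated muscle markers stood at 16.2 TPM in replicate 1 and 6.82 TPM in replicate 2, and their part in the Pygm level was not tested.

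Phosphorylase kinase, which switches phosphorylase on, had 7 of 8 genes detected. Calmodulin is also a subunit of this kinase, and its genes Calm2 and Calm3 had 170.5 and 165 TPM and 61.2 and 62.5 TPM. The catalytic subunit of muscle, Phkg1, was at 0.0500 and 0.0200 TPM.

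Of the other 5 targeting subunits, 2 were detected, so Ppp1r3b and Ppp1r3c were the highest of the 7 by a wide margin. Ppp1r3g had 5.74 and 4.51 TPM and Ppp1r3e 1.62 and 1.84 TPM. Ppp1r3d (0.700 and 0.690 TPM) and Ppp1r3f (0.410 and 0.510 TPM) were under 1 TPM, and the muscle subunit Ppp1r3a was listed at 0 TPM in both, on 0 and 2 counts. The catalytic subunits they bind were plentiful, with Ppp1ca at 147 and 155 TPM, Ppp1cc at 87.5 and 95.7 TPM and Ppp1cb at 37.2 and 36.6 TPM. All 5 of that list were detected.

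Of the kinases and hormone signals, 13 of 14 were detected, at list medians of 7.73 and 9.49 TPM. The glucagon receptor Gcgr led with 50.8 and 44.5 TPM, followed by the synthase kinase Gsk3a at 29.9 and 35.2 TPM and the adrenergic receptor Adra1b at 24.7 and 23.5 TPM. Prkaa2, a catalytic subunit of AMP-activated kinase, was at 0.560 and 0.550 TPM. Neither gene of glycogen quality control was detected. Epm2a, the glycogen phosphatase laforin, had 0.410 and 0.340 TPM, and Nhlrc1, its partner ubiquitin ligase malin, 0.350 and 0.400 TPM.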

How the data were processed

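The deposited mm10 tables of each library give, per the file headers, an expected count, a TPM and an FPKM value for each gene and transcript, and the percent of the gene's TPM that each transcript holds. Per the labels, libraries were stranded and read as 101-base pairs. Which aligner and quantifier were used is not given in the sources used here. The deposited mm9 tables hold RPKM values and junction read counts for 2 replicates. GENCODE M21 gave symbols and mm10 positions, RefSeq the promoters; 42462 of 43346 mouse gene identifiers matched. No coordinates were converted between builds.

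Expected counts were rounded. Spike-ins (2.79% of counts in replicate 1, 2.01% in replicate 2), phiX and other entries that name no mouse gene stayed out of library sizes. Counts were scaled by TMM in edgeR 4.0.16 (R 4.3.3), with 0.5 added before log2. Detection meant 1 TPM in both libraries. Shares and log2 ratios have exact binomial (Clopper-Pearson) 95% intervals, which cover counting error only. Every junction that the authors mark as annotated matched an ENSEMBL 65 intron, 176210 of 176210, and none of the 900939 others did. No p-values were computed. The members, lists and thresholds were chosen with earlier results of these data known. The text names the 9 members, their transcripts with at least 10% of gene TPM in a library, the 3 highest genes of each list, listed genes under 1 TPM in both libraries or beyond 2-fold, and the 2 highest markers of each type; some of these are not reported here. DESeq2 1.42.0 size factors and the other settings named at the end were alternatives.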

Additional observations from a re-analysis of the deposited data

How the results depend on the processing

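The median log2 ratio of the 9 genes, replicate 1 over replicate 2, was -0.02 after TMM and moved to -0.081 on the TPM ratio and -0.55 on the spike-in total. It was 0.92 on mm9 RPKM, first over second value. In settings added after the data were seen it was -0.12 for leading transcripts alone and -0.086 on all junction reads of each gene, R1 over R2. Depth limits the junction shares, whose intervals stand beside them. On mm9 RPKM, Gys2 over Gys1 was 5.88, Pygl over Pygb 8.98 and synthases over phosphorylases 0.352. The last was 0.434 on counts per annotated length. With leading transcripts alone, added later, Pygl over Pygb was 9.07 and synthases over phosphorylases 0.359. Leaving out 1 library gave 8.30 to 10.6 for Gys2 over Gys1, 8.47 to 8.86 for Pygl over Pygb, 0.884 to 1.01 for Ppp1r3c over Ppp1r3b, which lies on either side of 1, and 0.442 to 0.448 for synthases over phosphorylases.

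The lowest value among the 9 genes, Gys1 in replicate 1 at 6.62 TPM, lay above 5 TPM, the other detection level tried. The share of all genes at that level is not given here. None lay beyond the fold at 1.5-fold (5.68% of all genes) or at a mean count of 10 for 2-fold (4.38%). DESeq2 size factors, a prior count of 5 and TMM with no filter left the median ratio within counting error. No paired analysis was possible because there is 1 group. With 2 libraries the SD is itself poorly known. Without mitochondrial, haemoglobin and spike-in entries, TPM rose 1.51 times in replicate 1 and 1.42 times in replicate 2. The mean of Pygl, for example, moved from 162 to 236 TPM. Within a library this factor is the same for every remaining gene, so ratios between the 9 genes keep their values.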
